A study of Mus musculus with 20 samples.

Results

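The genes described here moved in opposite directions in 2 kinds of liver tumour, up in adenomas and down in carcinomas or the reverse, each tumour set against non-tumour liver of the same diet. They were found among 18193 genes, each read by its brightest suitable probe set (a group of short array probes for 1 transcript). In 6126 genes (33.7%) the 2 tumour effects had opposite signs, whatever their size. A gene was taken as a member where both effects also passed the test (adjusted p below 0.05), which left 561 genes, or 3.08% of those tested. Of these, 315 (1.73%) were higher in adenomas and lower in carcinomas, and 246 (1.35%) were lower in adenomas and higher in carcinomas. The 2 effects chose these genes, so the size and sign of the effects below describe the members and are no separate evidence for them.

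The mice were male C57BL/6 animals with a conditional knockout of Apc, whose protein holds together the complex that degrades beta-catenin and so keeps Wnt signalling low. Per the sample protocols they were given 0.75 mg of tamoxifen once, at 6 weeks of age, and 1 week later they began 9 months on a diet with 0.05% phenobarbital or on standard chow, whereas the design description mentions the liver carcinogen DEN, a conflict left unsettled here. The 4 groups of 5 arrays were adenomas of phenobarbital-fed mice (labelled APCko_Adenoma), non-tumour liver of phenobarbital-fed mice (PB_NT), carcinomas of mice on standard chow (APCko_Carcinoma) and non-tumour liver of mice on standard chow (H2O_NT, called untreated liver here). Every group, liver included, carried the conditional allele, and a wild-type comparison is not part of the data used here. The H2O_NT label names water, while the protocol names standard chow. The sources used here do not name the promoter that drives the recombinase. The adenomas came with phenobarbital and the carcinomas without it, so diet and tumour stage cannot be told apart. Nothing says that arrays within a group are separate animals, so p-values reflect only the spread among these arrays, which may be technical. All levels are log2 values, so a difference of 1 is a 2-fold change, and an effect is the mean of a tumour group minus the mean of its own liver group. The number of arrays limits the precision.

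As background, hepatocytes divide their work along the liver lobule. Around the central vein, active beta-catenin maintains a pericentral programme that includes bile acid synthesis, ammonia handling and drug metabolism, and loss of Apc switches that programme on in liver cells. Phenobarbital promotes rodent liver tumours and acts on hepatocytes through the nuclear receptor CAR. Adenomas are benign growths of hepatocytes, while carcinomas are malignant and often lose hepatocyte functions.

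The tissues were checked against the defining markers of hepatocytes before the members were described. Of 5 measured markers (Alb, Ttr, Apoa1, Hnf4a, Tat), none passed the test in adenomas and all 5 were lower in carcinomas. Over all genes 23.8% passed in adenomas and 37.3% were lower in carcinomas. The mean level of the 5 markers lay at 13.22 to 13.74 in adenomas, 13.64 to 13.77 in phenobarbital liver, 7.95 to 11.13 in carcinomas and 13.82 to 14.09 in untreated liver. Not passing in adenomas says little for markers with a wide carcinoma spread, because the fit shares 1 spread over the 4 groups. Alb had an SD of 0.02 in adenomas and phenobarbital liver and 2.03 in carcinomas, and its adenoma effect had an SE of 0.58. Hnf4a, a transcription factor of hepatocyte identity, read 8.80 ± 0.55 in carcinomas and 12.66 ± 0.06 in untreated liver (SD, n = 5 each). In the same tissues the 3 smooth muscle markers were all higher in carcinomas, with a mean level of 9.09 to 11.24 against 5.78 to 7.19 in untreated liver. Of 5 sinusoidal endothelial markers, 4 were lower in carcinomas. Over all genes 31.3% were higher and 37.3% lower in carcinomas. In bulk tissue, fewer cells of a type and less RNA per cell cannot be told apart, and the part of cell makeup in the carcinoma effects was not tested. Apc itself read 8.79 to 9.25 in adenomas, 8.43 to 8.71 in phenobarbital liver, 10.53 to 10.97 in carcinomas and 8.64 to 8.97 in untreated liver on its brightest probe set. The sources used here do not give the deleted part of Apc, so its probe sets check nothing about the knockout.

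The carcinomas stood much further from their liver than the adenomas did. The adenoma effect passed the test in 4338 genes (23.8%), the carcinoma effect in 12488 (68.6%) and the difference between the 2 effects in 8385 (46.1%). Across all genes the 2 effects had a correlation of 0.44, a description only, since genes are not independent replicates. Both effects passed in 3454 genes, of which 2893 moved the same way and 561 (16.2%) moved in opposite ways. The 561 members were thus a small share, 6.69%, of the 8385 genes with different tumour effects. In 69.2% of those 8385 genes only the carcinoma effect passed, in 5.69% only the adenoma effect, and in 16.3% both passed with the same sign. All 561 members passed the tests of the difference between the effects and of adenomas against carcinomas (61.8% of all genes for the second), which follows from how they were chosen.

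**Figure D1:**
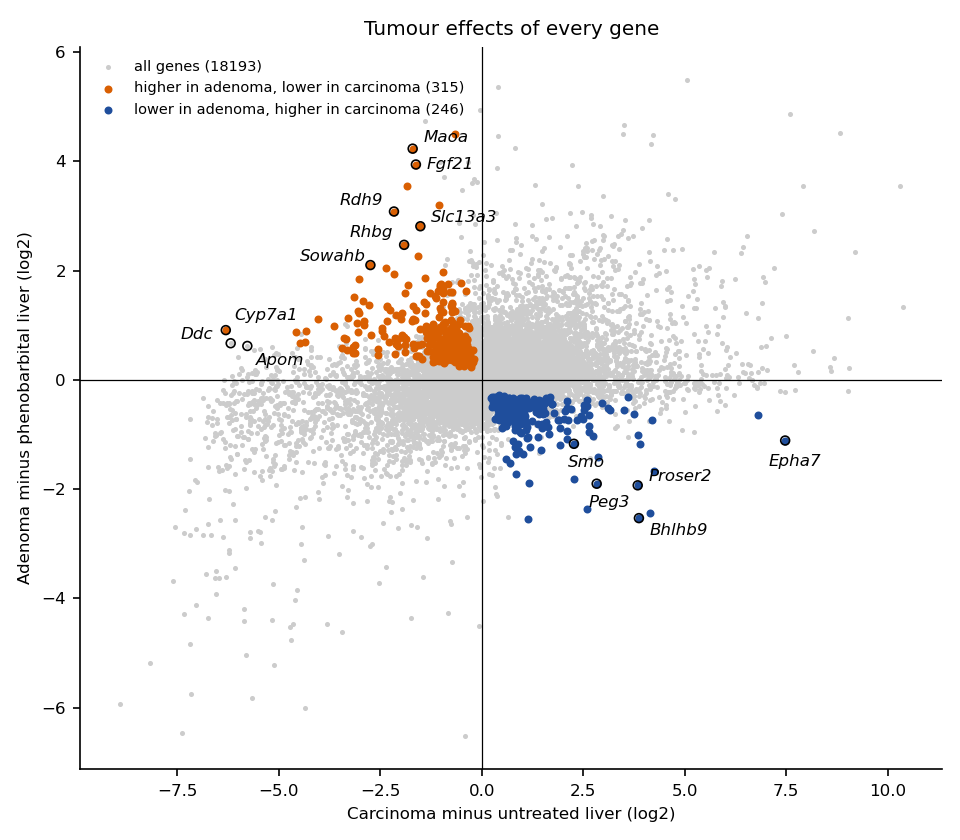
Each point is 1 of 18193 genes, with the carcinoma effect (log2, carcinoma minus untreated liver) on the horizontal axis and the adenoma effect (log2, adenoma minus phenobarbital liver) on the vertical axis. The 315 orange genes are in the upper left corner and the 246 blue genes in the lower right, while Ddc and Apom (open circles) are opposite in sign without passing the adenoma test.

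The members were well-expressed genes, and in most of them, as in other genes, the carcinoma effect was the larger of the pair. Their median level over all arrays was 8.55 for the genes higher in adenomas and 8.26 for the genes lower in adenomas, against 6.68 over all genes. The genes higher in adenomas had a median adenoma effect of 0.65 and a median carcinoma effect of -0.87, with the carcinoma effect larger in 196 of 315. The genes lower in adenomas had medians of -0.55 and 0.92, with the carcinoma effect larger in 187 of 246. Over all genes the medians were -0.03 and -0.12. A larger carcinoma effect was not particular to the members. It was also found in 1310 of the 1365 genes with different tumour effects and both effects passing with the same sign. At least a 2-fold change in both tumours was reached by 51 genes (0.28%) in the first direction and 23 genes (0.126%) in the second. In 166 of the 315 genes and 115 of the 246, the tumour arrays did not overlap the liver arrays in either comparison, which held for 13.4% of all genes.

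Single arrays carried the same pattern. The median of the 315 genes, taken as the difference from the mean of the matching liver group, was between 0.59 and 0.77 on the 5 adenoma arrays and between -0.98 and -0.81 on the 5 carcinoma arrays. That of the 246 genes was between -0.66 and -0.42 on the adenoma arrays and between 0.90 and 1.07 on the carcinoma arrays. No tumour array stood near its liver in either set, and adenoma 5 was the nearest in both. With each of the 20 arrays left out in turn, 188 of the 315 genes (59.7%) and 147 of the 246 (59.8%) remained members every time, and so did 44 of the 51 and 20 of the 23 genes with 2-fold changes. Members near the threshold were the ones lost. Smallest in their lesser effect were the members Zfp623 (0.39 in adenomas and -0.20 in carcinomas), Pak1ip1 (0.55 and -0.21) and Lrrc18 (-0.34 and 0.22). They lost their carcinoma call in 15, 15 and 5 of the 20 fits. Genes of opposite signs nearest outside the threshold were Taf1d (-0.38 and 1.38), Acyp1 (-0.65 and 0.71) and Prr5 (0.57 and -0.25).

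Cyp7a1, Ddc, Epha7 and Apom mark the far ends of the pattern, each with a carcinoma effect beyond 5 log2 units. Cyp7a1 encodes the enzyme that sets the rate of bile acid production. It read 12.39, 12.84, 11.91, 11.60 and 11.61 in the adenomas and 11.43, 11.18, 11.29, 10.58 and 11.33 in phenobarbital liver. It read 6.20, 4.38, 5.52, 4.63 and 4.60 in the carcinomas and 11.26, 11.59, 11.06, 11.61 and 11.31 in untreated liver. Every adenoma was above every phenobarbital liver array, although the lowest 2 were level with the highest untreated liver arrays, and the carcinomas were far below all liver arrays. The adenoma effect was 0.91 (SE 0.30, adjusted p = 0.034 by limma), the carcinoma effect -6.30 (SE 0.30, adjusted p = 3.4e-13) and their difference 7.21 (SE 0.42). A second, dimmer probe set of Cyp7a1 gave 0.65 and -5.02 and passed both tests too. The modest adenoma rise of Cyp7a1 missed the threshold when phenobarbital liver 2, 3 or 4 or adenoma 1 or 2 was left out (0.72 to 0.94, adjusted p 0.05 to 0.099). Of the 25 bile acid synthesis and transport genes, 2 were higher and 7 lower in adenomas and all 25 were lower in carcinomas. Over all genes 13.1% were higher and 10.8% lower in adenomas, and 37.3% were lower in carcinomas. The list's median adenoma effect was -0.31, so it did not rise as a whole with Cyp7a1. Cyp39a1 was the other member of the list, which made members 8.0% of it, against 1.73% of all genes in this direction.

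Epha7, a receptor tyrosine kinase for ephrin-A ligands, was the reverse. It read 3.66, 3.58, 4.41, 4.01 and 3.47 in the adenomas, against 5.03, 4.83, 4.97, 4.98 and 4.87 in phenobarbital liver. In the carcinomas it read 11.84, 11.96, 11.96, 11.76 and 11.99, against 4.70, 4.11, 4.72, 4.47 and 4.15 in untreated liver. Every adenoma was below every phenobarbital liver array and every carcinoma far above untreated liver, with an adenoma effect of -1.11 (SE 0.15, adjusted p = 3e-05), a carcinoma effect of 7.47 (SE 0.15, adjusted p = 2e-18) and a difference of -8.58 (SE 0.22). The other 3 Epha7 probe sets rose by 3.26 to 4.70 in carcinomas, but only 1 of them fell past the test in adenomas (-0.52, adjusted p = 0.041), and the others gave -0.08 and -0.06. The means of Epha7 in adenomas (3.83) and phenobarbital liver (4.94) were both below the median of all values in the table, 5.572, so its adenoma fall lies between low levels on an array and is a reversal on 2 of 4 probe sets, while its carcinoma rise was seen on all 4. It was the only member among 20 ephrins and Eph receptors, of which 1 was higher and 4 lower in adenomas and 8 were higher and 6 lower in carcinomas (all genes: 13.1% and 10.8% in adenomas, 31.3% and 37.3% in carcinomas).

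Ddc and Apom were opposite in sign only. Ddc encodes aromatic L-amino acid decarboxylase, which makes dopamine and serotonin. It read 11.64, 10.98, 11.87, 10.88 and 13.20 in the adenomas against 10.96, 10.97, 11.13, 11.08 and 11.09 in phenobarbital liver, and 5.71, 3.65, 6.81, 4.94 and 3.59 in the carcinomas against 11.30, 11.24, 10.73, 11.42 and 10.94 in untreated liver. Adenoma arrays of Ddc fell on both sides of their liver arrays, and the adenoma effect of 0.67 (95% interval -0.35 to 1.68) did not pass the test (adjusted p = 0.37). Its carcinoma effect was -6.18 (SE 0.48, adjusted p = 7.8e-10). Apom encodes apolipoprotein M, which carries sphingosine-1-phosphate on lipoproteins. Its adenoma effect was 0.62 (95% interval -0.16 to 1.40, adjusted p = 0.27) and its carcinoma effect -5.77 (SE 0.38, adjusted p = 4.6e-11). For both genes the difference between the effects passed (6.85 and 6.39), and the carcinoma side supplied most of it.

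**Figure D2:**
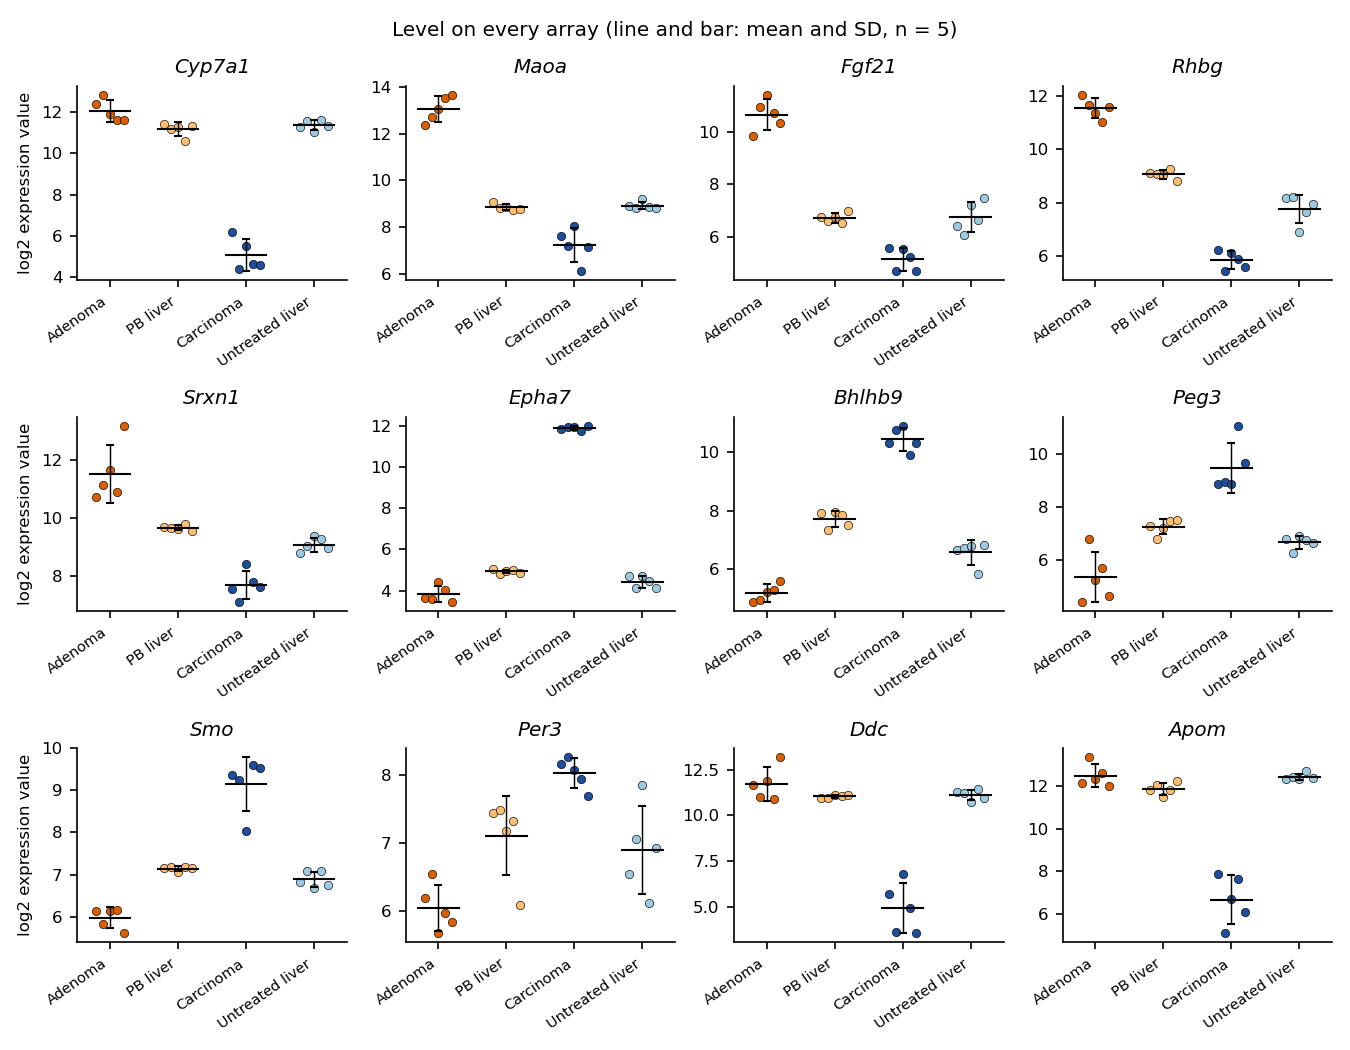
Points are the log2 level of a gene on each of 5 arrays per group, with the mean as a line and the SD as a bar; each panel has its own vertical axis. Cyp7a1, Maoa, Fgf21, Rhbg and Srxn1 are highest in adenomas and lowest in carcinomas, Epha7, Bhlhb9, Peg3, Smo and Per3 the reverse, and the adenomas of Ddc and Apom overlap their liver.

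Among genes higher in adenomas and lower in carcinomas whose tumour and liver arrays did not overlap in either comparison, the 12 with the largest change on their smaller side were Rdh9, Sowahb, Avpr1a, Hsf2bp, Rhbg, Itih5, Gpat3, Maoa, Fgf21, Slc13a3, Krt8 and Alpl, and all 12 remained members with any 1 array left out. Tinag (smaller side 1.85), Fam89a (1.58), Pdk4 (1.56) and Orm2 (1.51) ranked among them by size but had overlapping arrays; the first 2 are named here after their values were seen. Maoa, the monoamine oxidase that breaks down serotonin and noradrenaline, had the largest adenoma effect of the 12. It read 12.38, 12.71, 13.08, 13.53 and 13.68 in the adenomas against 9.06, 8.82, 8.87, 8.73 and 8.77 in phenobarbital liver, and 7.62, 7.18, 8.05, 6.10 and 7.15 in the carcinomas against 8.88, 8.83, 9.21, 8.87 and 8.80 in untreated liver. Every adenoma was more than 3 log2 units above every liver array, and every carcinoma was below them. The effects of Maoa were 4.23 (SE 0.27, adjusted p = 2.4e-09) and -1.70 (SE 0.27, adjusted p = 1.8e-05), and its other probe set gave 4.32 and -1.12.

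Fgf21, a hormone that the liver secretes under fasting and amino acid shortage, followed the same course. It read 9.86, 10.96, 11.42, 10.73 and 10.33 in the adenomas against 6.75, 6.62, 6.74, 6.51 and 7.0 in phenobarbital liver, and 5.58, 4.69, 5.53, 5.24 and 4.70 in the carcinomas against 6.41, 6.07, 7.23, 6.66 and 7.47 in untreated liver. Its effects were 3.94 (SE 0.28, adjusted p = 8.2e-09) and -1.62 (SE 0.28, adjusted p = 4.1e-05). Rdh9, a retinol dehydrogenase, read 13.48, 13.35, 12.82, 12.82 and 12.93 in the adenomas against 10.30, 9.53, 9.91, 10.40 and 9.86 in phenobarbital liver, and 8.82, 8.27, 7.70, 7.99 and 7.97 in the carcinomas against 10.72, 10.86, 9.64, 9.49 and 10.81 in untreated liver. The 4 tissue groups of Rdh9 thus fell into 3 tiers, with both livers in the middle. The effects of Rdh9 were 3.08 (SE 0.27) and -2.16 (SE 0.27), with adjusted p of 1.4e-07 and 7.8e-07.

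The other genes of the 12 span lipid synthesis, signalling and cell structure. Gpat3, an acyltransferase of triglyceride synthesis, had effects of 1.73 and -1.82. Avpr1a, the vasopressin receptor of hepatocytes, had effects of 2.05 and -2.35, and its second probe set gave 2.80 and -3.21. Krt8, the type II keratin of hepatocytes, had effects of 1.44 and -2.93, with 1.27 to 1.45 and -2.98 to -2.61 on its other probe sets. Itih5, which binds hyaluronan in the extracellular matrix, had effects of 1.85 and -3.01. Alpl, the tissue-nonspecific alkaline phosphatase, had the most even pair at 1.42 and -1.43. Sowahb (2.10 and -2.74) and Hsf2bp (1.93 and -2.17) complete the set, and the dimmer probe set of Hsf2bp gave only 0.19 and -0.52.

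**Figure D3:**
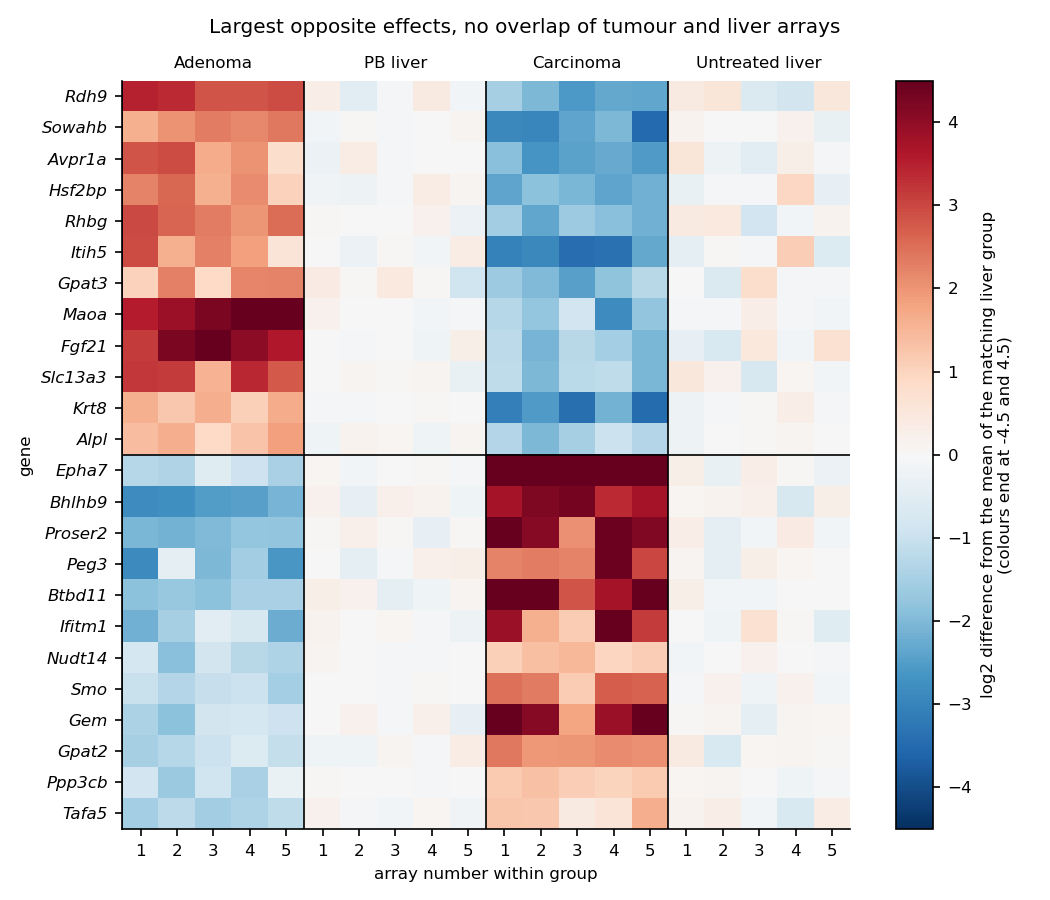
Rows are, in each direction, the 12 genes with the largest smaller-side effect among those without overlap of tumour and liver arrays, and columns the 20 arrays; colour is the log2 difference from the mean of the matching liver group, ending at -4.5 and 4.5. Adenoma and carcinoma columns have opposite colours, and the liver columns lie near white.

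Pericentral genes split between the tumours. Of 31 measured genes of this list, 5 were members, and all 5 were higher in adenomas and lower in carcinomas: Cyp7a1, Slc1a2, Rhbg, Gulo and Slc13a3. That was 16.1% of the list, against 1.73% of all genes. In adenomas 12 of the 31 were higher and 2 lower (13.1% and 10.8% of all genes), and in carcinomas 6 were higher and 24 lower (31.3% and 37.3%). The list had a median adenoma effect of 0.43 and a median carcinoma effect of -2.83. Rhbg, an ammonium transporter, read 12.04, 11.67, 11.36, 11.03 and 11.59 in the adenomas against 9.13, 9.08, 9.03, 9.27 and 8.81 in phenobarbital liver, and 6.23, 5.45, 6.13, 5.91 and 5.61 in the carcinomas against 8.17, 8.22, 6.92, 7.65 and 7.95 in untreated liver. Its effects were 2.47 (SE 0.22) and -1.91 (SE 0.22), with adjusted p of 1.6e-07 and 2.4e-07.

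Slc1a2, a glutamate transporter, rose by 3.20 (SE 0.43) in adenomas, and its carcinoma fall of -1.04 (SE 0.43, adjusted p = 0.041) missed the threshold without untreated liver 1, 2 or 5 or carcinoma 1 or 3 (-0.99 to -0.68, adjusted p 0.076 to 0.14). Of its 4 other probe sets, 2 passed both tests in the same directions, with 3.17 and -3.07 (carcinoma adjusted p = 1e-07) and with 2.95 and -0.74 (0.0016). Slc13a3, a dicarboxylate transporter, had effects of 2.81 and -1.51, with 3.19 and -2.11 on 1 other probe set and no call on 2 dim ones, and Gulo, the last enzyme of vitamin C synthesis in mice, had 1.23 and -3.03. Other pericentral genes did not reverse. Axin2, a feedback inhibitor of Wnt signalling, was higher in both tumours (2.39 in adenomas and 4.93 in carcinomas), and so were Glul, glutamine synthetase (1.24 and 0.56), and Lgr5, the R-spondin receptor (1.71 and 1.48). The drug-metabolising genes Cyp2e1 (0.03 and -3.22) and Cyp1a2 (0.01 and -5.14) passed the test in carcinomas and not in adenomas. None of the 28 Wnt feedback and target genes and none of the 29 periportal genes was a member. With 3.08% of all genes being members, that absence says little for lists of this size. The Wnt genes had median effects of 0.66 in adenomas and 3.06 in carcinomas, and the periportal genes -1.62 and -5.52. The letters CTTTGAT, the core that TCF and LEF factors bind with beta-catenin, were found for 1 of the 2 pericentral members with a window. They were found for 2.68% of all members with a window and 4.29% of genes. The pericentral member with the match was Slc1a2, shown with the match in capitals as the reverse complement, at chr2:102706188-102706297 (plus, GRCm38.p6, RefSeq).
Slc1a2: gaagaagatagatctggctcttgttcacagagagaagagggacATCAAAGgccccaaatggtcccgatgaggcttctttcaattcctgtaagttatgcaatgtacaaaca

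Target genes of NRF2 held more members than any other of the 46 lists. NRF2, the product of Nfe2l2, is a transcription factor that binds antioxidant response elements and raises genes of glutathione and thioredoxin metabolism. Of 22 measured targets, 7 (31.8%) were members, all higher in adenomas and lower in carcinomas, a class that held 1.73% of all genes. In adenomas 10 of the 22 were higher and none lower (all genes: 13.1% and 10.8%), and in carcinomas 1 was higher and 14 lower (all genes: 31.3% and 37.3%). The median effects of the list were 0.74 and -0.97. Srxn1 encodes sulfiredoxin, which restores oxidised peroxiredoxins. It read 10.73, 11.13, 11.66, 10.91 and 13.19 in the adenomas against 9.68, 9.66, 9.62, 9.80 and 9.55 in phenobarbital liver, and 7.55, 7.08, 8.40, 7.77 and 7.61 in the carcinomas against 8.77, 9.04, 9.36, 9.28 and 8.94 in untreated liver. No array of a tumour overlapped its liver, and adenoma 5 was the highest. The effects of Srxn1 were 1.86 (SE 0.33, adjusted p = 0.00038) and -1.40 (SE 0.33, adjusted p = 0.00098), and of its 3 other probe sets 1 passed both tests (1.40 and -1.37).

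Nqo1, a quinone reductase, had effects of 1.70 (SE 0.36) and -1.03 (SE 0.36), and its carcinoma fall missed the threshold without untreated liver 3 or carcinoma 3 or 4 (-0.88 to -0.77, adjusted p 0.051 to 0.061). Cbr1, a carbonyl reductase, had effects of 0.93 and -0.98. The remaining 3 members named here were picked out after their values were seen: Gclm, the modifier subunit of the enzyme that starts glutathione synthesis (0.80 and -2.40), Gsr, glutathione reductase (0.74 and -0.97), and Txnrd1, thioredoxin reductase (0.75 and -0.62). Txnrd1 remained a member in 9 of the 20 fits without 1 array, being lost without untreated liver 3 or 4, phenobarbital liver 1, 2, 4 or 5, carcinoma 1, 2 or 5 or adenoma 3 or 5, while Gclm, Gsr, Cbr1 and Srxn1 did so in all 20. Ephx1, an epoxide hydrolase, had a small adenoma effect of 0.47 that missed the threshold without any single phenobarbital liver array or without adenoma 2 or 5 (0.33 to 0.48, adjusted p 0.058 to 0.11). Nfe2l2 itself, also picked out afterwards, was a member with 0.42 and -0.34, and was lost without untreated liver 3 or carcinoma 2 or 5. Most targets were not members. Abcc4, an efflux pump, was the only target that passed the test as higher in both tumours (1.61 and 4.66). Gclc (-0.21 and -3.31) and Me1 (-0.57 and -3.19) passed in carcinomas only, and Gpx2 (2.87 and -0.57) in adenomas only. These last genes were named after their values were seen.

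Promoter windows of these genes are shown because the list is defined by a DNA element. The windows, from RefSeq on build GRCm38.p6, run from 250 bases before to 50 after the annotated start, and 448 of the 561 members had one. The core letters TGACNNNGC of the antioxidant response element were looked for on both strands. They occurred in 3 of the 6 NRF2 target members with a window, in 17.0% of all members with a window and in 14.0% of 27025 genes. The stretches below are on the gene's strand with the match in capitals, which in all 3 reads as the reverse complement, at chr2:152105537-152105566 (plus) for Srxn1, where the match lies after the start, chr3:122245363-122245491 (plus) for Gclm and chr10:82859054-82859182 (plus) for Txnrd1.
Srxn1: ggcgggcagtgggcaGCTAGGTCAgagtga
Gclm: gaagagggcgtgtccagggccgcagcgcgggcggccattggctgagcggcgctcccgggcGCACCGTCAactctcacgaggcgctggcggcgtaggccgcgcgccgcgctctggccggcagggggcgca
Txnrd1: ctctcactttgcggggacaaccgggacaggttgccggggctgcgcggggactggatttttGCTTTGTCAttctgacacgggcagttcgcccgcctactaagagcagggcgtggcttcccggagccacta

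Most genes of the integrated stress response rose in adenomas, and 3 of them reversed. In this response, amino acid shortage or protein misfolding raises translation of the transcription factor ATF4 and with it genes of amino acid supply. Of 22 measured genes, 16 were higher and 1 lower in adenomas, and 5 were higher and 7 lower in carcinomas, with medians of 1.33 and 0.03. Over all genes the shares were 13.1% and 10.8% in adenomas and 31.3% and 37.3% in carcinomas, so the list's carcinoma counts were near or under the background. The 3 members (13.6% of the list, against 1.73% of all genes), all higher in adenomas and lower in carcinomas, were Fgf21, Atf5 and Trib3. Atf5, a transcription factor of the ATF4 family, had effects of 1.14 (SE 0.19) and -3.28 (SE 0.19). Trib3, a pseudokinase that restrains ATF4, had 1.75 (SE 0.34) and -0.83 (SE 0.34, adjusted p = 0.039), and the carcinoma fall missed the threshold without untreated liver 2, 3 or 5 or carcinoma 1, 2 or 5 (-0.85 to -0.67, adjusted p 0.054 to 0.11). Its other probe set passed both tests, with 2.30 and -1.15. Amino acid supply genes of the list did not reverse: Psat1, an enzyme of serine synthesis, was higher in both tumours (4.48 and 4.21), and Asns, asparagine synthetase, passed in adenomas only (2.07 and -0.14).

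The core letters TGATGNAA of the CEBP-ATF element, which ATF4 binds together with C/EBP proteins, were found in the windows of 2 of these 3 members, in 1.79% of all members with a window and in 4.51% of genes. Both matches read as the reverse complement, at chr7:45615562-45615689 (minus) for Fgf21 and chr2:152344031-152344106 (minus) for Trib3, where the match lies after the start.
Fgf21: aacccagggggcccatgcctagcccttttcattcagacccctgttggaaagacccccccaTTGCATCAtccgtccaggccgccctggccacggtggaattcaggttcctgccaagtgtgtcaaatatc
Trib3: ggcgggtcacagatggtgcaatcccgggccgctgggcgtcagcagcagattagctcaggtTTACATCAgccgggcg

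**Figure D4:**
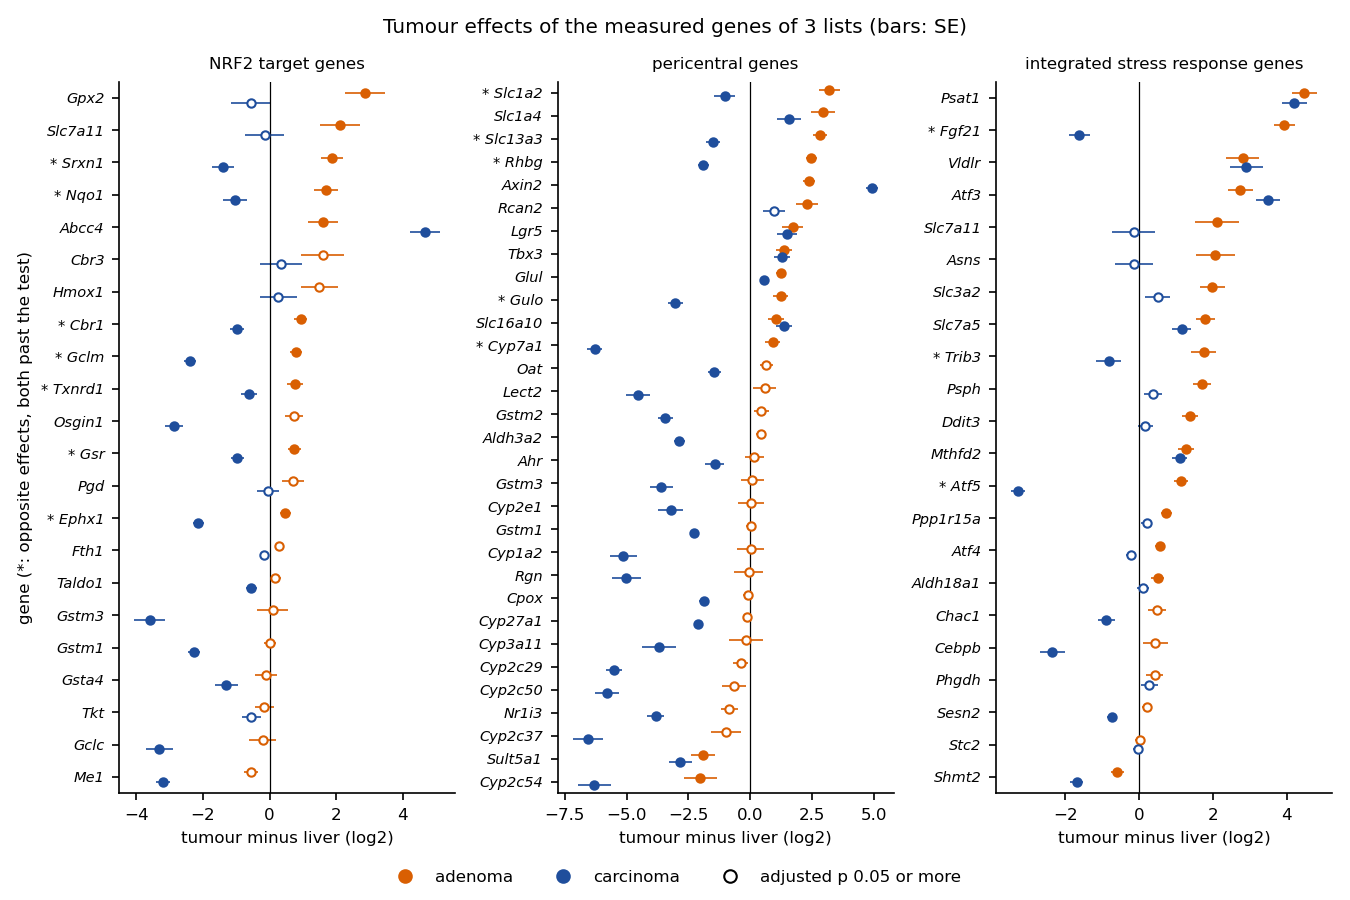
Each row is a measured gene of the named list, with the adenoma effect in orange and the carcinoma effect in blue (log2, bars are the SE) and open points where the adjusted p was 0.05 or more. Starred genes are the members, 7 of 22 NRF2 targets, 5 of 31 pericentral genes and 3 of 22 integrated stress response genes.

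Members from other metabolic lists were few and nearly all higher in adenomas. In all, 39 of 923 genes in any list (4.23%) were members, near the 3.08% of all genes. Of the 46 lists 20 had none, among them the cell cycle, DNA replication, glycolysis, urea cycle and drug-induced P450 lists. At so low a share over all genes, a short list without a member says little. Fatty acid oxidation supplied Pdk4, the kinase that holds back pyruvate oxidation (2.26 and -1.56), beside Fgf21. Lipid handling supplied Dgat1, the last enzyme of triglyceride synthesis (0.79 and -0.51), Plin3, a lipid droplet coat protein (0.91 and -1.03), and Cyp51, a demethylase of cholesterol synthesis (0.79 and -1.91, although its other probe sets gave only 0.26 and 0.27 in adenomas). Of 33 interferon response genes 2 were members, Bst2, the virus-tethering protein (1.35 and -2.34), and Oas2 (0.51 and -0.77), whose adenoma call was lost in 16 of the 20 fits without 1 array, any single liver array among them (0.32 to 0.52, adjusted p 0.05 to 0.14). Esam, an adhesion molecule of endothelium, was the member among 27 endothelial genes (0.72 and -0.97). Of the 27, 4 were higher and 6 lower in adenomas, and 3 were higher and 19 lower in carcinomas. Over all genes 13.1% were higher and 10.8% lower in adenomas, and 31.3% were higher and 37.3% lower in carcinomas. Further listed members were less steady: without 1 array, Cyp39a1, Fbp2, Scarb1, Creld2 and Orm2 lost their adenoma call in 7 to 11 fits, Psmb8 its carcinoma call in 4, and Fabp4 either call. Both other probe sets of Scarb1 and 1 of 3 of Fabp4 passed both tests the same way.

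Among genes lower in adenomas and higher in carcinomas, again without overlapping arrays, the 12 with the largest change on their smaller side were Bhlhb9, Proser2, Peg3, Btbd11, Ifitm1, Nudt14, Smo, Gem, Epha7, Gpat2, Ppp3cb and Tafa5. Genes with overlapping arrays that ranked among them by size included Nebl (smaller side 2.43), Arhgap24 (2.37) and Tpd52l1 (1.82), named here after their values were seen, and Per3 (1.06). Bhlhb9, of a family of receptor-sorting proteins, read 4.88, 4.97, 5.22, 5.28 and 5.62 in the adenomas against 7.92, 7.35, 7.95, 7.87 and 7.52 in phenobarbital liver, and 10.33, 10.77, 10.90, 9.92 and 10.32 in the carcinomas against 6.66, 6.74, 6.80, 5.85 and 6.84 in untreated liver. All 4 groups were apart from each other, with adenomas lowest and carcinomas highest. The effects of Bhlhb9 were -2.53 (SE 0.21, adjusted p = 4.8e-08) and 3.87 (SE 0.21, adjusted p = 2.1e-12), and it was read by 1 probe set.

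Peg3 is an imprinted gene of a zinc finger protein, expressed from the paternal copy. It read 4.39, 6.79, 5.23, 5.67 and 4.62 in the adenomas against 7.26, 6.80, 7.19, 7.48 and 7.49 in phenobarbital liver, and 8.89, 8.95, 8.88, 11.08 and 9.65 in the carcinomas against 6.77, 6.24, 6.91, 6.74 and 6.63 in untreated liver. Adenoma 2 was just under the lowest phenobarbital liver array and the other adenomas lay well below. The effects of Peg3 were -1.90 (SE 0.40, adjusted p = 0.0019) and 2.83 (SE 0.40, adjusted p = 4e-06), and of its 4 other probe sets 1 passed both tests (-0.93 and 1.52). Smo, the membrane protein that passes on Hedgehog signals, read 6.14, 5.82, 6.13, 6.17 and 5.61 in the adenomas against 7.15, 7.17, 7.06, 7.19 and 7.15 in phenobarbital liver, and 9.36, 9.24, 8.03, 9.60 and 9.53 in the carcinomas against 6.82, 7.08, 6.68, 7.08 and 6.76 in untreated liver. Liver levels of Smo were tight and every tumour array was apart from them, with effects of -1.17 (SE 0.21, adjusted p = 0.00048) and 2.27 (SE 0.21, adjusted p = 1.1e-08). Its other probe sets gave -0.61 (adjusted p = 0.10) and -0.12 in adenomas, and 1.95 and -0.05 in carcinomas.

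The rest of the 12 ranged from steady to borderline on the adenoma side. Nudt14, Ppp3cb, Gpat2, Tafa5, Proser2 and Btbd11 remained members in all 20 fits without 1 array. Nudt14, which splits UDP-glucose, had effects of -1.23 and 1.19, and Ppp3cb, a catalytic subunit of the phosphatase calcineurin, had -1.05 and 1.15. Of the other Ppp3cb probe sets, 1 passed both tests the same way (-0.67 and 1.06), 1 passed in adenomas only (-0.92 and 0.24), and the others gave 0.01 and -0.08 in adenomas with 0.90 and 0.29 in carcinomas. Gpat2, a mitochondrial acyltransferase, had -1.09 and 2.09, and Tafa5, a secreted protein, -1.36 and 1.02, with -0.62 and 0.27 on its other probe set, the second of which did not pass. Proser2 (-1.93 and 3.84) and Btbd11 (-1.66 and 4.24) had further probe sets that did not pass in adenomas (-0.38 for Proser2, and -0.46 and -0.17 for Btbd11). Ifitm1, an interferon-induced membrane protein (-1.42 and 2.87), and Gem, a small GTPase (-1.17 and 3.90), lay at the edge of the adenoma test. The call of Ifitm1 was lost in 14 and that of Gem in 13 of the 20 fits without 1 array, any single phenobarbital liver array, adenoma 1, 2 or 5 and untreated liver 1, 2, 4 or 5 among them for both, with carcinoma 5 and untreated liver 3 for Ifitm1 and adenoma 3 for Gem (-1.47 to -1.22 for Ifitm1 and -1.26 to -1.0 for Gem, adjusted p up to 0.11 for both).

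Listed genes in this direction were Epha7, Peg3, Per3, Bhlhe40, Lrat and Rps24. Per3 and Bhlhe40, which take part in the circadian clock, were members among 30 nuclear receptor and circadian genes, of which 10 were lower and 1 higher in adenomas and 6 were higher and 15 lower in carcinomas (all genes: 10.8% lower and 13.1% higher in adenomas, 31.3% higher and 37.3% lower in carcinomas). Per3 read 6.19, 6.55, 5.68, 5.98 and 5.84 in the adenomas against 7.45, 7.49, 7.18, 7.33 and 6.10 in phenobarbital liver, and 8.16, 8.27, 8.07, 7.95 and 7.70 in the carcinomas against 6.55, 7.06, 7.86, 6.12 and 6.93 in untreated liver. Both tumour groups of Per3 overlapped their liver at 1 liver array. Its effects were -1.06 (SE 0.28) and 1.12 (SE 0.28), and 2 of its 5 other probe sets passed both tests in the same directions. Bhlhe40 had -0.86 and 1.12 without overlap, and the sources used here do not say at what time of day tissues were taken. The E-box letters CACGTG, which clock factors bind, were found for 14.1% of all members with a window and 8.09% of 27025 genes. These gene sets were not matched for expression level, and the difference was not tested. Of Per3 and Bhlhe40, 1 had a window, without a match.

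Lrat, which stores vitamin A in stellate cells, was the only member among the cell type markers examined. Its adenoma effect was -1.73 (SE 0.34, adjusted p = 0.0011, with -1.76 on its other probe set), while its carcinoma effect of 0.85 (SE 0.34, adjusted p = 0.035) missed the threshold without untreated liver 2, 4 or 5 or carcinoma 1, 2 or 5 (0.68 to 0.87, adjusted p 0.051 to 0.10). Of the 6 stellate cell and fibroblast markers, 1 was higher and 3 lower in adenomas, and 3 were higher and 1 lower in carcinomas. Over all genes 13.1% were higher and 10.8% lower in adenomas, and 31.3% were higher and 37.3% lower in carcinomas. Rps24, a ribosomal protein, had -0.49 and 2.54 on the probe set used, but 4 others, of a type that can bind related transcripts, gave -0.01 to 0.11 in adenomas and 0.91 to 0.97 in carcinomas. The remaining probe set, a dim one, gave -0.22 in adenomas and fell in carcinomas (-0.41, adjusted p = 0.004 by limma). The reversal of Rps24 rested on 1 probe set.

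Most members with several probe sets had another with the same signs, but only a minority had another that passed both tests the same way. No such share over all genes is given for comparison. Of the 315 genes higher in adenomas, 181 had several probe sets, and in 145 another had the same signs and in 69 another passed both tests the same way. Of the 246 genes lower in adenomas, 163 had several, with 125 and 46. In none of the 344 members with several probe sets did another pass both tests in the opposite directions. The remaining members had no other probe set that could show it.

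Few members passed the test between the liver groups, although their share was above that of all genes. In phenobarbital liver against untreated liver, a comparison that shares arrays with both tumour effects, the calls were 37 (0.203%), with 34 up (0.187%) and 3 down (0.0165%), and 4 of these genes were members: Rhbg (1.28, adjusted p = 0.013), Prss8, a membrane-anchored protease (2.06, adjusted p = 4.6e-06), Ifi27l2b (1.10, adjusted p = 0.03) and Bhlhb9 (1.14, adjusted p = 0.019). Prss8 and Ifi27l2b were named after their values were seen. All 4 were higher with phenobarbital, which for the first 3 is the direction of their adenoma effect and for Bhlhb9 the opposite. At an unadjusted p below 0.05 (limma), 63 of the 561 members differed between the livers, a larger share than the 1075 of 18193 genes (5.91%). Socs2, a feedback inhibitor of growth hormone signalling, depended on which liver it was set against. It read 8.83, 8.15, 8.58, 8.86 and 6.45 in the adenomas against 7.12, 6.69, 6.68, 7.36 and 6.63 in phenobarbital liver, and 7.48, 6.44, 6.50, 8.23 and 7.33 in the carcinomas against 8.95, 8.89, 8.49, 9.29 and 8.38 in untreated liver. Its liver difference was -1.91 (adjusted p = 0.05), and with the 2 liver groups exchanged its effects turned to -0.63 and 0.30. Foxa3, a hepatocyte transcription factor (0.90 and -4.33), likewise gave -0.13 in adenomas against untreated liver. The adenoma call was also lost without phenobarbital liver 2, 3 or 5 or adenoma 1, 3 or 4 for Socs2 (1.11 to 1.23) and without phenobarbital liver 2, 3, 4 or 5 or adenoma 1, 2 or 3 for Foxa3 (0.81 to 0.91). Of the 5 other Socs2 probe sets, 1 passed both tests in the same directions (1.93 and -1.49).

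The genes lower in adenomas were unevenly spread over the chromosomes. With chromosomes taken from the RefSeq gene table (GRCm38.p6), 46 of the 246 (18.7%) were on chromosome 14, where they made up 7.18% of 641 genes, and 29 (11.8%) on chromosome 12, 4.66% of 622 genes, against 1.35% of all genes. Genes higher in adenomas were most frequent on chromosome 15, with 27 members or 3.73% of 724 genes, against 1.73% of all genes. The remaining genes of these chromosomes moved too. The median shift of chromosome 14 genes that were not members was -0.48, -0.65, -0.39, -0.26 and 0.02 in adenomas 1 to 5, and of chromosome 12 genes -0.46, -0.13, -0.34, 0.02 and -0.14. On chromosome 15 it was 0.36, 0.05, 0.24, 0.20 and 0.17.

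Adenoma arrays differed from each other in which chromosomes were shifted, while liver arrays showed no such shift. A shift of 0.2 or more in size occurred in 25 of 100 pairs of chromosome and adenoma array and in 9 of 100 pairs for carcinomas, and in none for phenobarbital or untreated liver, where shifts lay between -0.03 and 0.02 and between -0.05 and 0.06. The 46 chromosome 14 members followed their chromosome from array to array, with medians of -0.71, -0.85, -0.53, -0.55 and -0.04 in adenomas 1 to 5. When each array's chromosome-wide shift was subtracted, a step added after seeing the data, 10 of the 46 members on chromosome 14 and 13 of the 29 on chromosome 12 remained members. Over all chromosomes 235 of 315 and 154 of 246 remained, as did 51 of 51 and 20 of 23 of those with 2-fold changes.

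**Figure D5:**
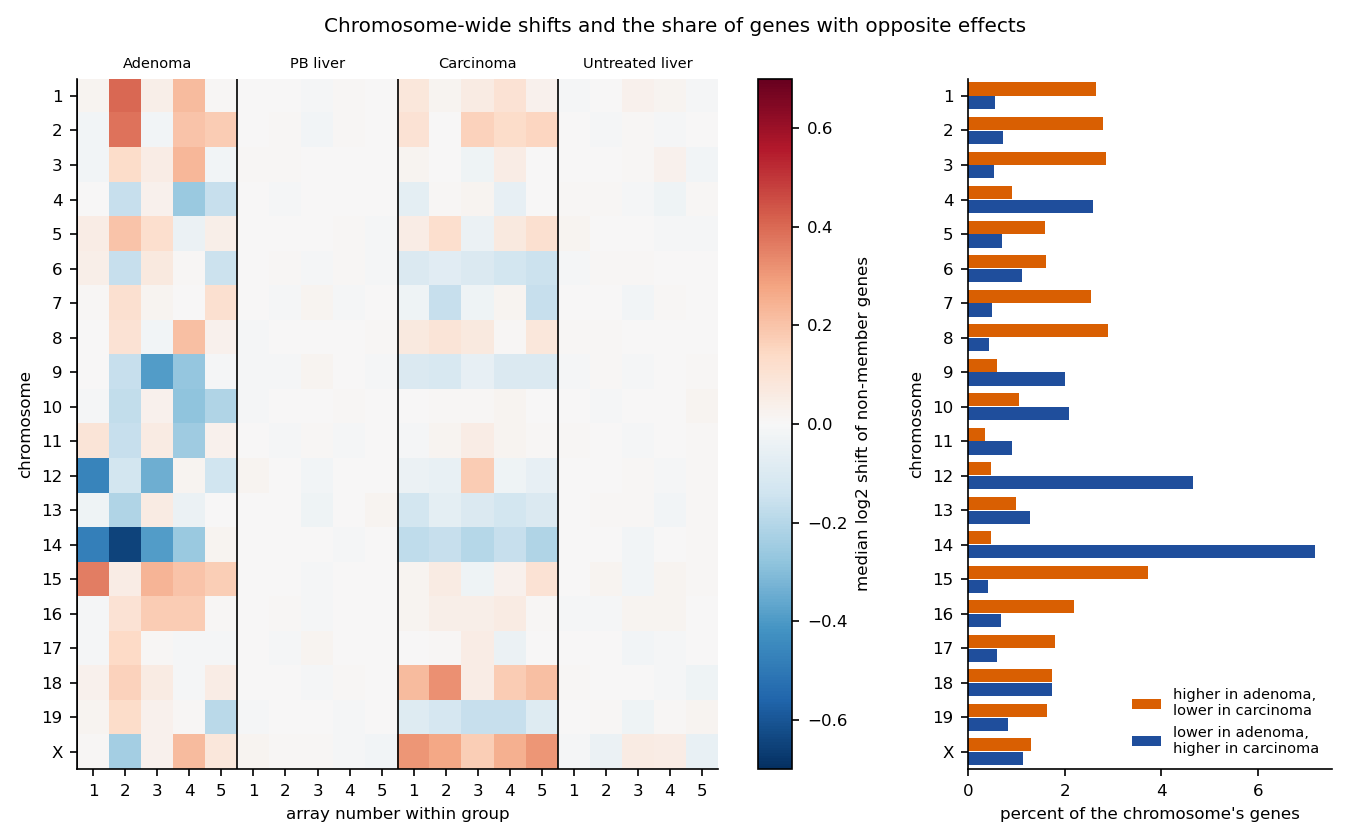
The left panel gives, for each chromosome (rows) and array (columns, grouped as adenoma, phenobarbital liver, carcinoma and untreated liver), the median log2 shift of its non-member genes from the matching liver mean. The right panel gives the percent of each chromosome's genes that were higher in adenomas and lower in carcinomas (orange) or the reverse (blue), with chromosome 14 reaching 7.18% in blue.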

How the data were processed

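The authors deposited log2 values from mouse expression arrays, made with RMA per the submitters' processing notes, and 20 arrays in 4 title groups of 5 were used. RMA combines the probes of a set and equalises the arrays, so values are relative within the table. Of 45037 probe sets, 34945 had 1 gene symbol, 932 several and 9160 none. Each of 18193 genes was read by its brightest probe set not ending in _x_at, where it had one. One limma fit over the 4 groups (lmFit and eBayes, limma 3.58.1, R 4.3.3, 16 residual degrees of freedom) gave two-sided tests, with Benjamini-Hochberg adjustment over all 34945 probe sets and a threshold of 0.05. It was tested on simulated data. Figures and summaries used Python 3.11.15. Named genes were the 4 markers, listed members and 12 members per direction. Those 12 had the largest smaller effect among members whose tumour and liver arrays did not overlap in either comparison. Also named were the members with the smallest such effect and the genes of opposite signs nearest outside the threshold. Members and gene lists were chosen with earlier results of these data known. Alternatives covered scaling, array weights, filters, liver groups, probe set choice, the replicate block and each array left out. Same-numbered tumour and liver arrays correlated at -0.0512 to 0.0537. Carcinomas 1, 2 and 4 correlated best with the untreated liver array of their own number. Carcinomas 3 and 5 and every adenoma correlated best with a liver array of another number. Whether the numbers pair samples was not tested.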

Additional observations from a re-analysis of the deposited data

Results flagged for a closer look

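In 8385 genes the adenoma and carcinoma effects differed by the test of the difference itself. Among the genes named above, the difference (adenoma effect minus carcinoma effect, log2) was 7.21 for Cyp7a1, 6.85 for Ddc, 6.39 for Apom and -8.58 for Epha7. It was 5.93 for Maoa, 5.56 for Fgf21, 5.23 for Rdh9, 4.86 for Itih5, 4.84 for Sowahb, 4.40 for Avpr1a, 4.39 for Rhbg, 4.36 for Krt8, 4.31 for Slc13a3, 4.09 for Hsf2bp, 3.54 for Gpat3 and 2.85 for Alpl. In the other direction it was -6.40 for Bhlhb9, -5.89 for Btbd11, -5.77 for Proser2, -5.06 for Gem, -4.73 for Peg3, -4.28 for Ifitm1, -3.44 for Smo, -3.18 for Gpat2, -2.42 for Nudt14, -2.37 for Tafa5 and -2.20 for Ppp3cb.

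Single arrays stood apart from the other 4 of their group in 9 of 108 groups of values, where chance gives about 1 in 20. Carcinoma 3 was low for Proser2 (9.05) and Smo (8.03), and phenobarbital liver 5 was low for Slc13a3 (6.73). Untreated liver 4 stood apart for Apom (12.70), Hsf2bp (7.62) and Bhlhb9 (5.85), untreated liver 3 for Maoa (9.21) and Gem (4.66), and untreated liver 1 for Alpl (6.27).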

How the results depend on the processing

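The counts were 315 genes higher in adenomas and lower in carcinomas and 246 in reverse. Leaving out 1 array gave 249 to 336 and 187 to 280, with 3602 to 4615 adenoma, 11912 to 12590 carcinoma and 7950 to 8462 difference calls, 440 to 615 members differing between tumours and 2 to 7 differing between livers. The fit with the replicate number as a block gave 297 and 240. Both tumours against the 10 liver arrays gave 414 in the second direction and 876 members differing between tumours, and exchanged livers gave 376 in the second direction; the cause was not tested. Requiring 2-fold changes left 1162 calls for adenoma against phenobarbital liver and 5128 for carcinoma against untreated liver, 51 and 23 opposite genes and 74 differing between tumours, by construction. Members that differed between the livers were 4, against 12 with array weights and 2 without untreated liver 3 and 4; the cause was not tested. With livers exchanged, Foxa3 turned to -0.13 in adenomas and Socs2 to -0.63 in adenomas and 0.30 in carcinomas, a difference of -0.93. With chromosome-wide shifts removed, added after seeing the data, counts were 323 and 216 and Lrrc18 turned to 0.05 in adenomas. No member passed both tests in the other direction in any setting run. Of the named genes' values under alternatives, 5671 kept direction and side, 270 lost the call, 29 gained it and 5 turned.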
